A study of Oryctolagus cuniculus with 9 samples.

Results

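Potassium channel subunits were described in RNA from rabbit urethral tissue. The members were the rows of the deposited count table whose symbol starts with KCN, followed by letters and a number, and that had 10 or more counts in at least 3 of 9 libraries. This rule kept 57 of the 91 rows with such a symbol, out of 28788 gene rows in all. By channel class, the 57 members were 23 pore subunits and 7 auxiliary subunits of voltage-gated channels, 9 subunits of calcium- and sodium-activated channels, 8 inward rectifiers and 10 tandem-pore (K2P) channels. Of the 57 members, 56 also passed the filter used for testing, and KCNJ10 did not.

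The study placed a urethral repair stent in living animals and sequenced the tissue to look into how the stent acts on repair. Polyadenylated RNA of urethral tissue was sequenced in 9 libraries, 3 for each code in the sample titles (S6, S7 or S9). The libraries are named S6_2, S6_3 and S6_4, S7_2, S7_3 and S7_4, and S9_1, S9_2 and S9_4. Values below are given in that order. The labels used here name tissue and code only. They give no meaning of the codes, no treatment, time, strain, sex or age for a library, and no control group. They also do not say whether libraries came from separate animals, so the p-values measure the spread between these libraries, which may be technical.

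Potassium channels let potassium leave the cell and so set the resting membrane potential and end electrical excitation. In smooth muscle, opening them hyperpolarizes the membrane, closes voltage-gated calcium channels and relaxes the muscle. Voltage-gated channels open on depolarization, calcium-activated channels open on local calcium release, ATP-sensitive inward rectifiers respond to metabolism, and tandem-pore channels carry the background leak. Leukocytes and epithelium use channels of the same families for volume control, activation and ion transport, so that bulk tissue RNA mixes the subunits of several cell types.

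Total counts per library lay between 35127085 and 36832773, and the kept members took 0.0450% to 0.0850% of them. Levels of 1 gene across libraries are TMM-scaled CPM, that is counts relative to the library total, where TMM is edgeR's correction for library composition. Levels of different genes are compared per length, as the deposited FPKM. Mitochondrially encoded transcripts made up 0.243% to 0.419% of counts in S6_4, S7_3 and S9_4 and 0.910% to 1.52% in the other 6 libraries, so 1 library of each code stood apart. Markers of some cell types moved with the codes. The summed CPM of 12 smooth muscle markers was 2388 to 4150.1 in S6, 4048 to 12689 in S7 and 7575 to 14604 in S9, and 8 of the 12 were higher in S9 than in S6 by the test described below. The sum of 14 leukocyte markers was 9210.4 to 17222 in S6, 3152 to 6813 in S7 and 603 to 1021 in S9, and 13 of the 14 were lower in S9. S100A8, S100A9 and S100A12 made up most of that sum in every library. Higher in S9 were also 4 of 9 tested Schwann cell and nerve markers, 2 of 10 endothelial markers, 2 of 12 epithelial markers (KRT15 and KRT18) and 1 of 9 fibroblast and interstitial cell markers (ANO1). Over all tested genes, 6.02% were called higher and 6.34% lower. The log2 fold change was negative in 7 of the 12 epithelial markers (median -0.23) and in 2 of the 9 fibroblast and interstitial cell markers (median 0.42). Schwann cell and nerve markers summed to 129 to 327 CPM in S6, 167 to 487 in S7 and 479.8 to 622 in S9. Endothelial markers summed to 1366 to 1603, 1069 to 2446 and 1210 to 2649, and epithelial markers to 4180 to 5957, 5738 to 6779.5 and 3901 to 7217. Fibroblast and interstitial cell markers summed to 20748 to 34126, 37755 to 76892 and 29634 to 41566. The 6 skeletal muscle markers found in the table summed to 13.3 to 18.7 in S6, 8.15 to 15.7 in S7 and 12.8 to 24.6 in S9, with MYH1 at 0 in all 9 libraries. The tissue label was thus matched by smooth muscle and epithelial markers in every library. In bulk tissue, a change in the number of cells of a type and a change in RNA per cell cannot be told apart.

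Levels were uneven among the members. Mean FPKM over the 9 libraries ran from 0.0286 for KCNB2 to 35.8 for KCNMB1, and it was at least 1 in 22 members, at least 5 in 14 and at least 10 in 7. The 10 members with the highest mean held 74.3% of the summed FPKM of all members. They were KCNMB1, KCNJ8, KCNK6, KCNE4, KCNK1, KCNAB1, KCNE3, KCNK5, KCNK3 and KCNMA1, so each class except the voltage-gated pore subunits was among them. The highest pore subunit of the voltage-gated class was KCNQ1, with a mean FPKM of 5.87. In 39 members, all 9 libraries had 10 or more counts. KCNB2 and KCNJ10 reached 10 counts in no S6 library and KCNA7 reached it in no S9 library, so that these members passed the rule through other codes.

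Of the 34 rows that were not kept, 8 had no count in any library (KCNC2, KCND2, KCNE2, KCNH7, KCNJ1, KCNK18, KCNV1 and KCNV2) and 26 had some. KCNJ10 and KCNK17 were just inside the rule, with 10 counts in exactly 3 libraries. KCNC4, KCNIP4, KCNJ11, KCNJ3, KCNJ6 and KCNK15 were just outside, with 10 counts in exactly 2 libraries. KCNJ11, which forms the pore of the ATP-sensitive channel of pancreatic beta cells and heart, had 61 counts over all 9 libraries, whereas its paralog KCNJ8 had the second highest mean FPKM of all members.

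The summed level of a class differed between the codes for some classes. Calcium- and sodium-activated members summed to 27.9 ± 3.77 FPKM in S6, 56.04 ± 32.5 in S7 and 84.9 ± 35.5 in S9 (mean ± SD, n = 3). Their sums ranged from 25.3 to 32.3 in S6 and from 47.2 to 118 in S9, so these codes did not overlap. The S7 sums, 28.2 to 91.7, overlapped both. Voltage-gated pore subunits summed to 11.7 ± 3.85 FPKM in S6, 16.6 ± 3.74 in S7 and 25.5 ± 3.25 in S9, again without overlap between S6 (7.47 to 14.97) and S9 (23.6 to 29.3). Tandem-pore channels summed to 54.02 ± 17.6, 57.7 ± 1.38 and 50.6 ± 10.4 FPKM, and auxiliary subunits to 45.1 ± 14.3, 39.6 ± 12.4 and 42.4 ± 10.9. In both of these classes the ranges of all 3 codes overlapped. Inward rectifiers summed to 19.9 ± 4.77, 31.8 ± 12.1 and 28.7 ± 2.27 FPKM, and here too S6 (16.5 to 25.3) and S9 (26.8 to 31.2) did not overlap. KCNMB1 was the member with the highest FPKM in S7_2 and in all 3 S9 libraries, KCNJ8 in S6_2 and S7_4, KCNAB2 in S6_3, KCNE3 in S6_4 and KCNK6 in S7_3. A sum of FPKM is led by its few abundant members, and no test was run on it.

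**Figure D1:**
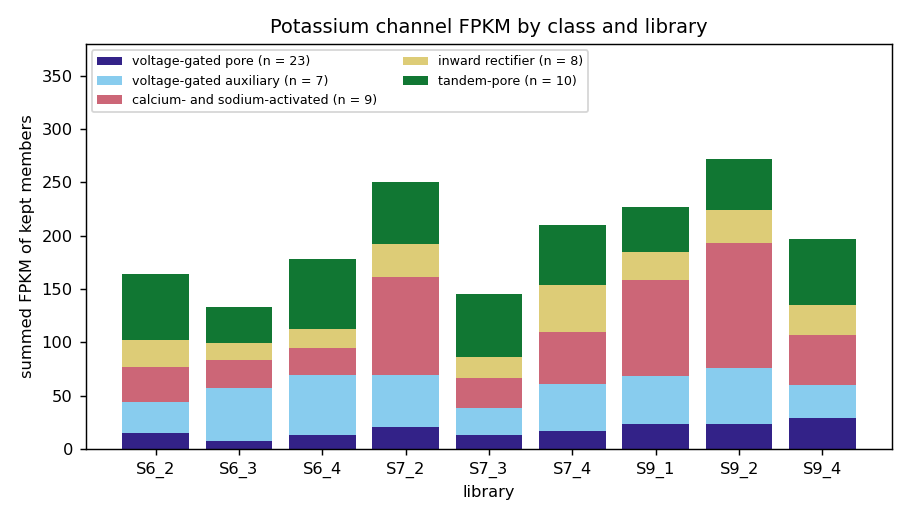
Summed FPKM of the 57 kept members in each library (horizontal axis), stacked by channel class, with the number of members of a class in the legend. The calcium- and sodium-activated part was 25.3 to 32.3 FPKM in the S6 libraries and 47.2 to 118 in the S9 libraries.

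The comparison of S9 with S6 had the most called members. By edgeR's quasi-likelihood test, adjusted by Benjamini-Hochberg over 17102 tested genes with a threshold of 0.05, 9 of 56 tested members changed. Of these, 5 were higher in S9, among them KCNMA1, KCNN3 and KCND3, by 3.79-fold to 4.89-fold. The other 4, KCNE3, KCNAB2, KCNA3 and KCNJ2, were lower in S9, by 2.13-fold to 4.59-fold. These 9 members are 16.1% of those tested, against 12.4% of all tested genes (6.02% higher and 6.34% lower), which is near that background. The adjusted p-values of the 7 named lay between 0.0280 and 0.0482, all close to the threshold. A further 3 members, KCNAB1, KCNN2 and KCNMB1, had adjusted p-values between 0.05 and 0.06. KCNN2, KCNT2, KCNA2, KCNH2, KCNA7 and KCNB2 lie outside the rule for members with a full test and were named after their values were seen.

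At an unadjusted p under 0.05, 21 of the 56 tested members differed between S9 and S6, 16 higher and 5 lower. Over all genes, the share in either direction was 31.2%, with 2641 of 17102 higher and 2697 lower. The CPM of S9 and S6 did not overlap in 27 members (48.2%), against 35.5% of all genes. Of the 56 tested members, 21 lay wholly higher in S9, against 18.6% of all genes, and 6 of the 56 lay wholly lower, against 17%. The log2 fold change was positive in 42 of the 56 tested members (75.0%), with a median of 0.66, where the median over all genes was -0.01. By class, the median was 1.54 for calcium- and sodium-activated members (8 of 9 positive, 2 called higher), 1.34 for voltage-gated pore subunits (20 of 23 positive, 3 called higher and 1 lower), 0.57 for auxiliary subunits (5 of 7 positive, 2 called lower), 0.39 for inward rectifiers (4 of 7 positive, 1 called lower) and -0.22 for tandem-pore channels (5 of 10 positive, 0 called). No test compared the classes with each other.

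**Figure D2:**
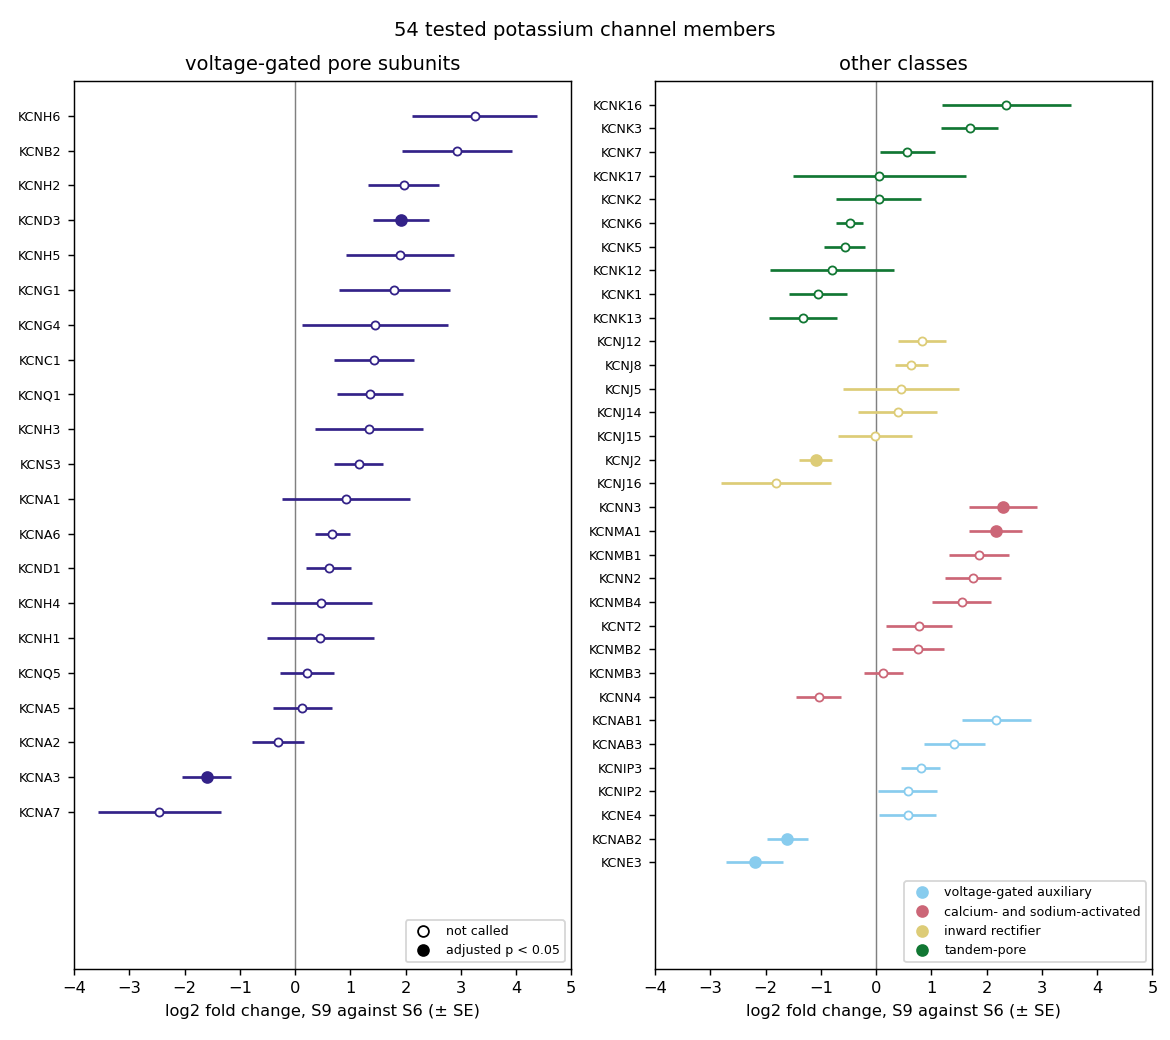
Log2 fold change of S9 against S6 for 54 of the 56 tested members (horizontal axis), with bars of 1 standard error, coloured by class and ordered by size within a class. Filled points mark 7 members with an edgeR adjusted p under 0.05. Most open points of the voltage-gated pore and calcium- and sodium-activated classes also lie to the right of 0.

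The number of called members rested on single libraries. It was 0 without S6_4, without S9_1 or without S9_2, 1 without S6_3 and 3 without S7_4, and it was between 9 and 11 when another library was left out, each time with edgeR. Over all genes, the share called fell likewise, to 0.508% without S6_4, 0% without S9_1, 0.0228% without S9_2, 5.85% without S6_3 and 6.81% without S7_4. The members called were not always the same. The 1 called without S6_3 was not among the 9 of the main fit. Where 9 to 11 were called, 6 or 7 of them were among those 9. In the 6 libraries with the higher mitochondrial share, 0 members and 0.0406% of all genes were called, and 19 members had an unadjusted p under 0.05. There the log2 fold change was 2.22 for KCNMA1, 1.59 for KCND3, 2.93 for KCNN3, -2.05 for KCNE3, -1.64 for KCNAB2, -1.10 for KCNJ2 and -1.96 for KCNA3, with adjusted p-values of 0.0584 to 0.195 for these 7 by edgeR. None of the 9 called members changed sign in these fits. DESeq2 called 19 members and limma-voom 17, where they called 21.1% and 23.7% of all genes.

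Among calcium-activated channels, the pore of the large-conductance (BK) channel rose. KCNMA1, which encodes this pore and in smooth muscle carries the outward current that opposes contraction, stood at 46.97, 25.4 and 24.7 CPM in S6, 188, 62.5 and 67.2 in S7 and 158, 178 and 99.2 in S9. All 3 S9 libraries were above all S6 libraries, and S7_2 was above every S9 library. The difference was 4.49-fold (log2 fold change 2.17 ± 0.48 SE, adjusted p = 0.028 by edgeR). KCNMB1 encodes the smooth muscle beta subunit that raises the calcium sensitivity of the BK channel. Its level was 29.1, 20.01 and 21.4 CPM in S6, 90.3, 21.01 and 48.6 in S7 and 86.2, 128 and 41.7 in S9. S9 and S6 did not overlap, S7_3 lay with the S6 libraries and S9_4 lay below the other S9 libraries. The test missed the threshold (log2 fold change 1.86 ± 0.54 SE, adjusted p = 0.0543 by edgeR).

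Per length, KCNMB1 was more abundant than KCNMA1 in every library. That order depends on the gene lengths behind FPKM, 1522 for KCNMB1 and 11500 for KCNMA1. By counts, KCNMA1 was above KCNMB1 in every library (for example 5975 against 3257 in S9_1). The FPKM ratio of KCNMB1 to KCNMA1 was 4.68, 5.96 and 6.55 in S6, 3.62, 2.54 and 5.46 in S7 and 4.12, 5.45 and 3.18 in S9, so the codes overlapped. KCNMB4, a beta subunit known best from neurons, had 8.61, 10.5 and 8.15 CPM in S6, 23.7, 15.2 and 11.5 in S7 and 30.8, 41.1 and 7.7 in S9. S9_4 was below all S6 libraries while S9_1 and S9_2 were the highest of all (log2 fold change 1.54 ± 0.53 SE, adjusted p = 0.0854 by edgeR). KCNMB2 and KCNMB3, the remaining beta subunits, were at 0.462 and 1.35 mean FPKM and their S9 and S6 libraries overlapped.

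KCNN3 encodes a small-conductance calcium-activated channel that is found in smooth muscle, endothelium and interstitial cells. It stood at 1.46, 1.85 and 2.33 CPM in S6, 3.9, 1.75 and 2.67 in S7 and 13.02, 12.3 and 2.36 in S9. S9_1 and S9_2 were far above every other library, whereas S9_4 was barely above the highest S6 library. The difference was 4.89-fold (log2 fold change 2.29 ± 0.62 SE, adjusted p = 0.0445 by edgeR), and without S9_4 the log2 fold change was 2.76. KCNN2, its paralog, had 0.786, 0.363 and 0.402 CPM in S6, 1.39, 1.72 and 2.37 in S7 and 1.91, 2.22 and 1.11 in S9, with all S9 libraries above all S6 libraries (edgeR adjusted p = 0.0538).

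KCNN4 differs from these in being the intermediate-conductance channel of leukocytes, epithelium and endothelium. It was the 1 member of the class with a negative log2 fold change. Its level was 8.45, 14.99 and 8.71 CPM in S6, 15.03, 7.63 and 7.16 in S7 and 5.32, 3.42 and 6.83 in S9, with every S9 library below every S6 library (log2 fold change -1.04 ± 0.40 SE, adjusted p = 0.114 by edgeR), which misses the threshold. KCNT2, a sodium-activated channel, had 0.484 to 0.623 CPM in S6 and 0.712 to 1.14 in S9, and its adjusted p was 0.41 by edgeR.

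Of the voltage-gated pore subunits, 3 rose and 1 fell in S9. KCND3, which carries transient A-type current, had 2.84, 1.15 and 1.61 CPM in S6, 8.32, 3.3 and 4.77 in S7 and 8.15, 3.94 and 9.16 in S9. Here S9_2 was the lowest S9 library and still above all S6 libraries (log2 fold change 1.92 ± 0.51 SE, adjusted p = 0.043 by edgeR).

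KCNA3, a voltage-gated channel best known from T lymphocytes and macrophages, fell. It stood at 3.66, 8.33 and 6.46 CPM in S6, 3.27, 2.45 and 3.3 in S7 and 1.91, 1.18 and 2.99 in S9. All S9 and all S7 libraries were below all S6 libraries. The S9 level was 3.03-fold lower (log2 fold change -1.60 ± 0.44 SE, adjusted p = 0.0482 by edgeR). KCNA2, its neighbour in the RefSeq annotation of mOryCun1.1, had a log2 fold change of -0.31 (edgeR adjusted p = 0.693). The strand setting of the counting is not given in the sources used here. How reads that overlap both of a pair of neighbours were counted is therefore not known.

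The most abundant pore subunits of this class did not pass the test. KCNQ1, which pairs with KCNE subunits in epithelium and heart, had 8.23, 1.09 and 4.21 CPM in S6, 8.59, 6.66 and 6.16 in S7 and 8.6, 10.5 and 15.7 in S9. S6_3 was the lowest by far, and S9 lay above S6, by a small margin to S6_2 (log2 fold change 1.36 ± 0.60 SE, adjusted p = 0.156 by edgeR). KCNS3, a silent subunit that modifies other delayed rectifier channels, had 2.14, 1.79 and 4.85 CPM in S6, 3.33, 4.15 and 4.6 in S7 and 7.75, 4.3 and 7.44 in S9. S9_2 lay below S6_4, so the codes overlapped (log2 fold change 1.15 ± 0.44 SE, adjusted p = 0.111 by edgeR). KCNA5, a delayed rectifier of vascular smooth muscle, had 4.2, 3.42 and 3.7 CPM in S6, 2.86, 1.55 and 3.7 in S7 and 2.94, 7.53 and 1.96 in S9, with S9_2 the highest library and S9_1 and S9_4 below all S6 libraries (log2 fold change 0.13 ± 0.53 SE, adjusted p = 0.895 by edgeR). Without S9_2 the log2 fold change of KCNA5 was -0.62.

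KCNQ5, a channel of the M-type current found in smooth muscle, had 4.14, 2.997 and 0.992 CPM in S6, 4.01, 3.01 and 2.72 in S7 and 3.39, 2.6 and 3.47 in S9. S6_4 was the lowest library and the other S6 libraries lay within or above the S9 range (log2 fold change 0.22 ± 0.49 SE, adjusted p = 0.806 by edgeR). Without S6_4 the sign of the KCNQ5 difference turned, to -0.17. The difference of highest absolute value among pore subunits belonged to KCNH6, a channel of the ERG group, at 0.677, 0.121 and 0.0268 CPM in S6, 2.13, 0.175 and 1.2 in S7 and 1.72, 2.33 and 3.92 in S9. S9 lay above S6, but only 6 libraries had 10 or more counts (log2 fold change 3.25 ± 1.14 SE, adjusted p = 0.0896 by edgeR). KCNH2, the ERG channel of the heart, had 0.975 to 1.54 CPM in S6 and 3.92 to 6.24 in S9, without overlap (edgeR adjusted p = 0.0739). KCNA7 had a log2 fold change of -2.46 and KCNB2 of 2.93, the first with no S9 library and the second with no S6 library at 10 counts.

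Both auxiliary subunits that changed were lower in S9. KCNE3, a small single-span subunit that holds KCNQ1 open in epithelium, stood at 42.1, 50.3 and 119 CPM in S6, 20.02, 27.5 and 47.5 in S7 and 12.97, 9.37 and 23.7 in S9. S6_4 was above every other library by a wide margin, and all S9 libraries were below all S6 libraries. The S9 level was 4.59-fold lower (log2 fold change -2.20 ± 0.52 SE, adjusted p = 0.0324 by edgeR), and without S6_4 the log2 fold change was -1.58 (edgeR adjusted p = 0.0923). The FPKM ratio of KCNE3 to KCNQ1 was 1.84, 16.6 and 10.2 in S6, 0.84, 1.49 and 2.78 in S7 and 0.544, 0.32 and 0.545 in S9. In S9, therefore, KCNQ1 exceeded KCNE3 per length in all 3 libraries, and in S6 the order was the other way round. The S9 order depends on the gene lengths behind FPKM, 1337 for KCNQ1 and 3707 for KCNE3. By counts, KCNE3 was above KCNQ1 in S9_1 (490 against 325) and S9_4 (896 against 593) and below it in S9_2 (342 against 385).

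The cytoplasmic beta subunits of the KCNA channels went apart. KCNAB2, which is abundant in leukocytes and neurons, stood at 25.9, 83.3 and 49.8 CPM in S6, 24.4, 26.4 and 24.2 in S7 and 13.5, 21.6 and 16.99 in S9. S6_3 was the highest library, and all S9 libraries were below all S6 and all S7 libraries. The S9 level was 3.05-fold lower than in S6 (log2 fold change -1.61 ± 0.37 SE, adjusted p = 0.031 by edgeR), and without S6_3 the log2 fold change was -1.11 (edgeR adjusted p = 0.0591). KCNAB1, found in smooth muscle, heart and brain, had 21.5, 10.6 and 8.74 CPM in S6, 79.1, 12.8 and 38.9 in S7 and 63.4, 79.6 and 41.5 in S9. S7_2 lay close to the highest S9 library while S7_3 lay among the S6 libraries. The difference was 4.52-fold but missed the threshold (log2 fold change 2.18 ± 0.62 SE, adjusted p = 0.0513 by edgeR). KCNE4, an auxiliary subunit that inhibits several voltage-gated channels, was the most abundant of the class per length and had 13.5, 46.2 and 24.98 CPM in S6, 43.7, 25.7 and 39.6 in S7 and 48.1, 59.7 and 17.5 in S9. S9_1 and S9_2 were above all S6 and S7 libraries, and S9_4 lay within the S6 range (log2 fold change 0.57 ± 0.52 SE, adjusted p = 0.496 by edgeR).

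**Figure D3:**
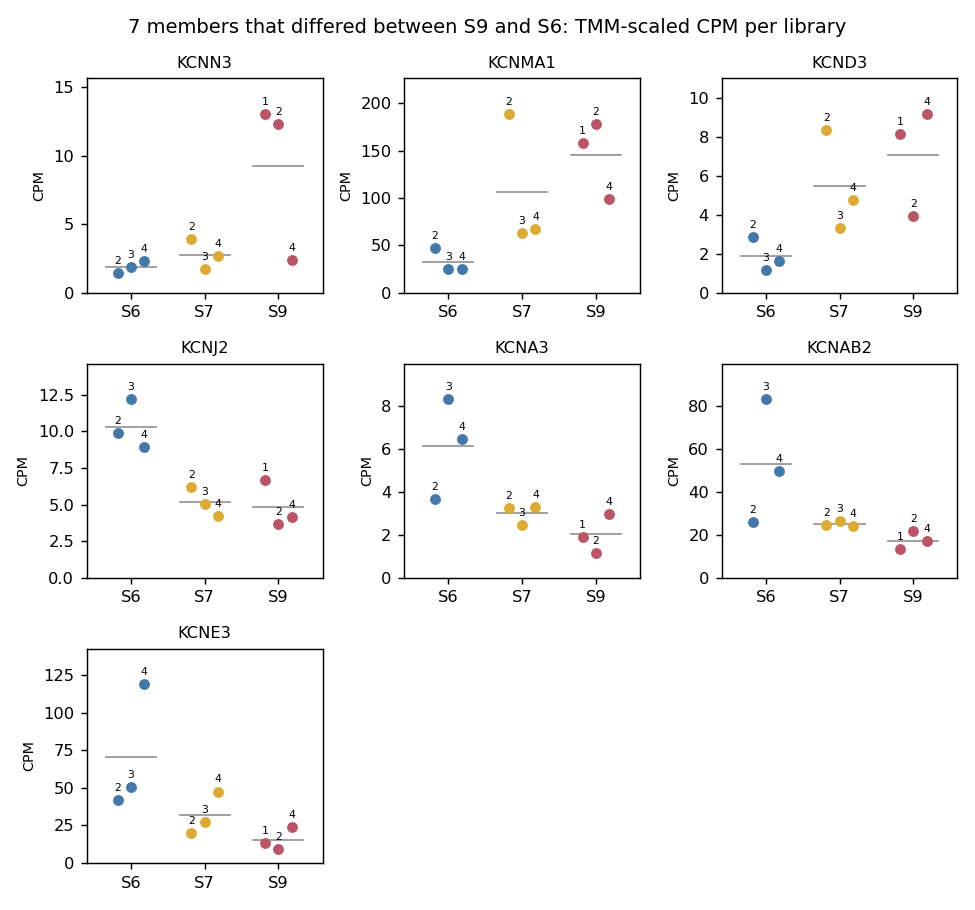
TMM-scaled CPM of 7 of the 9 members called in S9 against S6, each point 1 library with its number and each line the mean of a code. The first 3 members are higher in all S9 than in all S6 libraries and the last 4 are lower, and in KCNN3 library S9_4 lies beside the S6 libraries.

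Among inward rectifiers, KCNJ2 fell. This strong rectifier, which holds the resting potential of muscle, endothelium and macrophages, stood at 9.89, 12.2 and 8.93 CPM in S6, 6.19, 5.05 and 4.22 in S7 and 6.67, 3.67 and 4.18 in S9. Every S7 and every S9 library was below every S6 library. The S9 level was 2.13-fold lower (log2 fold change -1.09 ± 0.30 SE, adjusted p = 0.0481 by edgeR). KCNJ8, the pore of the ATP-sensitive channel of vascular smooth muscle and pericytes, was the most abundant rectifier. It had 45.9, 30.7 and 29.97 CPM in S6, 65.3, 37.7 and 92 in S7 and 49.5, 61.4 and 55.03 in S9. All S9 libraries were above all S6 libraries, by a small margin to S6_2, and S7_4 was the highest (log2 fold change 0.64 ± 0.31 SE, adjusted p = 0.192 by edgeR).

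ABCC9 encodes the sulfonylurea receptor that completes the KCNJ8 channel, and it neighbours KCNJ8 in mOryCun1.1. ABCC9 was nearly level across the 9 libraries, at 27.1 to 32.02 CPM in S6, 26.6 to 34.8 in S7 and 28.6 to 34.8 in S9 (log2 fold change 0.16 ± 0.16 SE, adjusted p = 0.526 by edgeR). The FPKM ratio of KCNJ8 to ABCC9 was 3.18 to 4.23 in S6, 4.17 to 7.79 in S7 and 4.19 to 5.67 in S9. KCNJ15 and KCNJ16, rectifiers of transporting epithelium, varied widely within the codes. KCNJ15 had 7.75, 3.51 and 4.77 CPM in S6, 2.29, 7.74 and 2.91 in S7 and 6.03, 8.33 and 1.48 in S9, with S9_4 the lowest and S9_2 the highest library of all (log2 fold change -0.02 ± 0.67 SE, adjusted p = 0.989 by edgeR). KCNJ16 had 2.3, 0.817 and 3.94 CPM in S6, 1.28, 5.38 and 0.436 in S7 and 1.14, 0.657 and 0.212 in S9, with S7_3 the highest (log2 fold change -1.81 ± 0.99 SE, adjusted p = 0.248 by edgeR). KCNJ10, the partner of KCNJ16 in kidney and glia, had 0.0303 to 0.161 CPM in S6 and 0.212 to 0.397 in S9 and was not tested.

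No tandem-pore channel passed the test in S9 against S6 with edgeR, and 1 of 10, KCNK3, had an unadjusted p under 0.05. KCNK3, an acid-sensitive leak channel of smooth muscle, had 14.6, 12.1 and 14.9 CPM in S6, 57.5, 11.3 and 21.6 in S7 and 44.1, 58.2 and 32.1 in S9. S9 and S6 did not overlap, and S7_2 lay at the top of the S9 range (log2 fold change 1.69 ± 0.52 SE, adjusted p = 0.0618 by edgeR). KCNK6, the most abundant tandem-pore channel per length and present in vascular smooth muscle and macrophages, had 60.3, 68.2 and 63.7 CPM in S6, 57.6, 91.1 and 69.3 in S7 and 33.95, 41.1 and 62.5 in S9. S9_1 and S9_2 were the lowest libraries and S9_4 lay within the S6 range (log2 fold change -0.48 ± 0.24 SE, adjusted p = 0.211 by edgeR). KCNK1, a leak channel abundant in epithelium, had 19.6, 4.42 and 20.96 CPM in S6, 9.85, 19.5 and 12.01 in S7 and 6.01, 8.22 and 7.46 in S9. S6_3 was the lowest library of all and the remaining S6 libraries were above S9 (log2 fold change -1.05 ± 0.52 SE, adjusted p = 0.204 by edgeR).

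KCNK5, an alkaline-activated channel of epithelium, had 51.5, 19.5 and 56.2 CPM in S6, 21.3, 23.02 and 27.97 in S7 and 20.9, 28.02 and 36.6 in S9. Here again S6_2 and S6_4 were high and S6_3 low (log2 fold change -0.57 ± 0.37 SE, adjusted p = 0.328 by edgeR). KCNK16, which neighbours KCNK17 and KCNK5 in mOryCun1.1, had 1.03, 0 and 0.375 CPM in S6, 2.76, 0.351 and 1.5 in S7 and 1.51, 2.38 and 3.36 in S9. It had the tandem-pore difference of highest absolute value, from few counts (log2 fold change 2.35 ± 1.17 SE, adjusted p = 0.206 by edgeR).

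**Figure D4:**
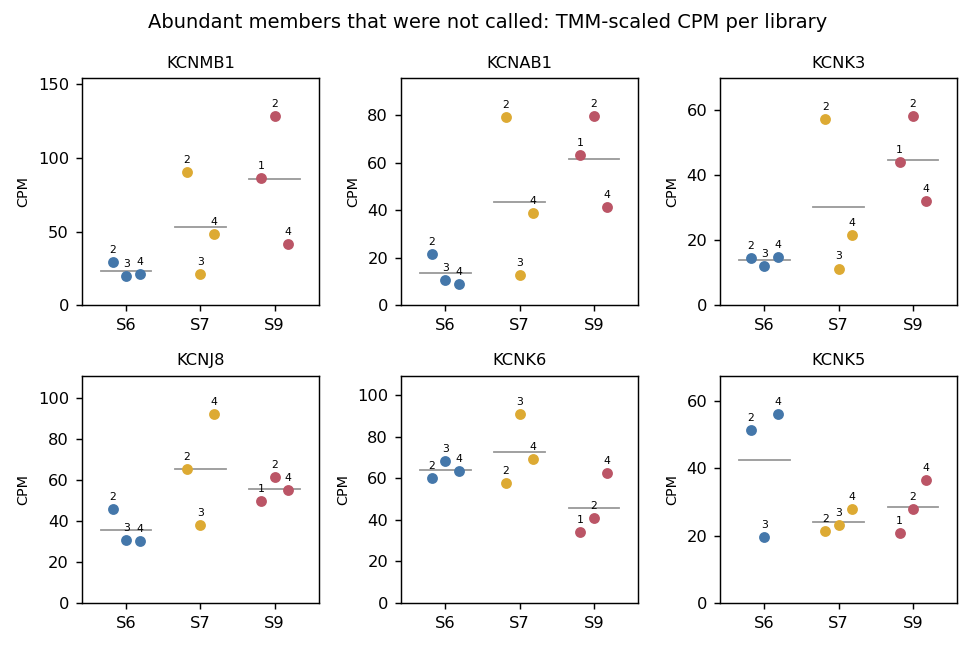
TMM-scaled CPM of 6 abundant members that were not called in S9 against S6, each point 1 library with its number and each line the mean of a code. KCNMB1, KCNAB1 and KCNK3 share a layout with S7_2 high and S7_3 at the S6 level, KCNJ8 is highest in S7_4, and KCNK6 and KCNK5 overlap between the codes.

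S7 was compared with S6 and with S9 in the same model, so that these comparisons share libraries with the one above. No member was called in S7 against S6 by edgeR, where 0.111% of all genes were called. At an unadjusted p under 0.05, 13 members differed, where the share over all genes was 17.1%. The CPM of S7 and S6 did not overlap in 10 members (17.9%), against 21.2% of all genes, and the median log2 fold change was 0.56. DESeq2 called 6 members and the other alternatives, limma-voom among them, called 0. The share of all genes called by DESeq2 in this comparison is not given here, so the 6 have no background beside them. The lowest adjusted p was 0.137, for KCNMA1 (log2 fold change 1.71). For the other named members called in S9 against S6, the log2 fold change of S7 against S6 was 1.55 for KCND3, 0.56 for KCNN3, -1.15 for KCNE3, -1.08 for KCNAB2, -1.03 for KCNA3 and -1.003 for KCNJ2.

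In S9 against S7, no member and 0% of all genes were called by edgeR. At an unadjusted p under 0.05, 3 members differed (KCNK6, KCNN3 and KCNN4), where the share over all genes was 9.21%. The CPM did not overlap in 6 members (10.7%), against 17.2% of all genes. No other tool called a member in this comparison, and the lowest adjusted p was 0.538, shared by KCNK6, KCNN3 and KCNN4. The mean CPM of S7 lay between those of S6 and S9 for all 9 members called in S9 against S6. Within S7 the libraries differed. S7_2 was above all S6 libraries for all 5 members that were higher in S9 and below all S6 libraries for all 4 that were lower. S7_3 was above all S6 libraries for 3 of the 5, KCND3 and KCNMA1 among them. An F test over the 3 codes called 0 members by edgeR, where 2.43% of all genes were called. In that test 15 members had an unadjusted p under 0.05, where the share over all genes was 25.1%.

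Between S6 and S9, markers of smooth muscle rose along with the members that were higher in S9, though not library by library for each member. MYH11, the myosin heavy chain of smooth muscle, stood at 1357, 595 and 615 CPM in S6, 4366, 852 and 1887 in S7 and 4594, 5609 and 2886 in S9, and it rose in S9 against S6 (log2 fold change 2.35 ± 0.60 SE, adjusted p = 0.0398 by edgeR). Expressed per MYH11 count, KCNMA1 was 3.46% to 4.27% in S6, 3.56% to 7.34% in S7 and 3.17% to 3.44% in S9, so that the S9 ratios lay just below the lowest S6 ratio. The highest ratio, 7.34%, was in S7_3. KCNAB1 per MYH11 was 1.42% to 1.78% in S6 and 1.38% to 1.44% in S9, and KCNMB1 per MYH11 was 2.15% to 3.48% in S6 and 1.44% to 2.29% in S9. KCNK3 per MYH11 was 1.07% to 2.41% in S6 and 0.96% to 1.11% in S9. MYH11 had the highest log2 fold change of the 12 smooth muscle markers, which ranged from 0.91 to 2.35, and other markers placed the ratios differently. Over the 12 markers taken one at a time, the S9 ratios of KCNMA1 lay wholly above those of S6 for 4 (ACTG2, TAGLN, DES and CALD1), wholly below for 1 (MYH11), and overlapped for 7. Relative to the summed CPM of the 12, KCNMA1 was 0.983% to 1.13% in S6 and 1.22% to 1.45% in S9, without overlap. For KCNAB1 the S9 ratios lay above S6 for the same 4 markers and overlapped for 8. KCNMB1 was above for 1 and below for 1, and KCNK3 was above for 2 and below for 0. KCND3 and KCNN3 overlapped for all 12, with wide ratios. Relative to the summed CPM of the 12, KCND3 was 0.0446% to 0.0685% in S6 and 0.0270% to 0.121% in S9. For KCNN3 the ranges were 0.0352% to 0.0976% and 0.0311% to 0.119%. Within S9, KCND3 was lowest in S9_2, where the smooth muscle sum was highest, and highest in S9_4, where that sum was lowest. These ratios are descriptions, and the part of smooth muscle content in the member differences was not tested.

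Between S6 and S9, leukocyte markers fell along with the members that were lower in S9, though not library by library for each member. PTPRC, the common leukocyte antigen CD45, stood at 34.8, 229.6 and 72.4 CPM in S6, 27.1, 14.6 and 26.8 in S7 and 13.97, 15.7 and 26.2 in S9, and it fell (log2 fold change -2.59 ± 0.64 SE, adjusted p = 0.0361 by edgeR). KCNA3 per PTPRC was 3.63% to 10.5% in S6, 12.1% to 16.8% in S7 and 7.5% to 13.6% in S9. KCNAB2 per PTPRC was 36.3% to 74.3% in S6, 90.2% to 180.04% in S7 and 64.9% to 138% in S9. The S6 and S9 ratios overlapped for both genes, and S6_3, with the highest PTPRC, had the lowest of both ratios. Over the 14 leukocyte markers taken one at a time, the S9 ratios of KCNAB2 lay wholly above S6 for 9 and overlapped for 5, and those of KCNA3 lay above for 5 and overlapped for 9. Those of KCNJ2 lay above for 6 and overlapped for 8, and those of KCNE3 lay above for 2 and overlapped for 12. For these 4 members no leukocyte marker gave S9 ratios wholly below S6. The ratios of KCNE3 were wide, at 0.292% to 1.29% of the summed leukocyte markers in S6 and 0.917% to 3.01% in S9. Within S6, KCNE3 was highest in S6_4, where the leukocyte sum, led by S100A8, S100A9 and S100A12, was lowest (9210.4 CPM). Other leukocyte markers ordered the S6 libraries differently. PTPRC was lowest in S6_2, and CD68 and MZB1 were highest in S6_4 (213 and 106 CPM). Per epithelial marker, KCNE3 was wholly lower in S9 for 11 of 12 and overlapped for EPCAM. The part of leukocyte content in these differences was not tested.

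**Figure D5:**
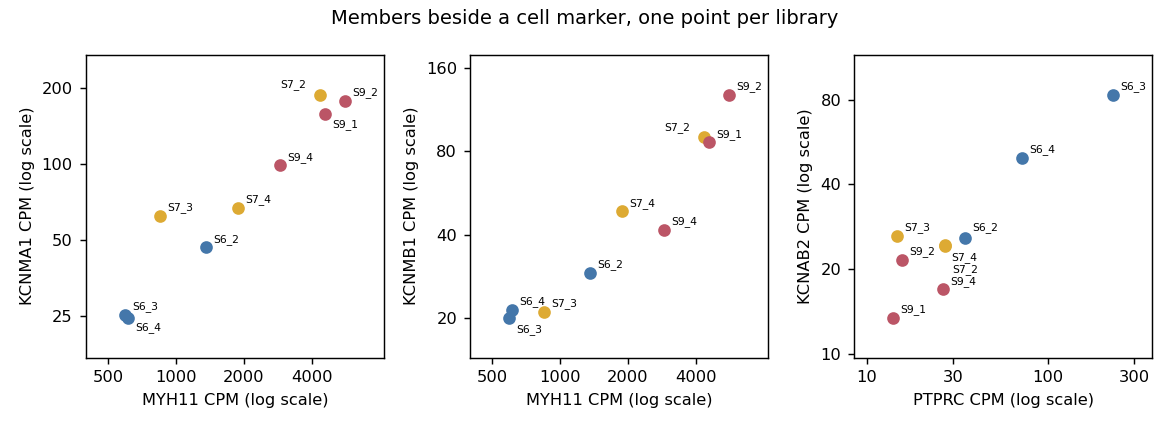
TMM-scaled CPM of KCNMA1, KCNMB1 and KCNAB2 (vertical, log scale) against the CPM of a cell marker (horizontal, log scale), each point 1 library. KCNMA1 is highest in S7_2 and the S9 libraries, which have the highest MYH11, whereas KCNMB1 in S7_4 lies above S9_4, and KCNAB2 is highest in S6_3, where PTPRC is highest.

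Genes that work with the channels were taken as lists. Of 16 listed partner proteins of potassium channels, 13 were tested, 0 passed the edgeR test in S9 against S6 and 5 had an unadjusted p under 0.05, all higher. Over all tested genes, 6.02% were called higher and 6.34% lower in this comparison, and 31.2% had an unadjusted p under 0.05. Their median log2 fold change was 1.21. LRRC26, which lets BK channels open at lower voltage in secretory epithelium, had 3.93, 0.424 and 0.536 CPM in S6, 6.93, 1.2 and 1.5 in S7 and 9.32, 9.78 and 7.68 in S9, with S9 above S6 (log2 fold change 2.45 ± 0.96 SE, adjusted p = 0.119 by edgeR). DPP6, a partner of KCND channels, had 1.68, 0.424 and 0.483 CPM in S6, 2.65, 1.81 and 1.66 in S7 and 3.2, 3.18 and 3.65 in S9, also with S9 above S6 (log2 fold change 1.95 ± 0.56 SE, adjusted p = 0.0543 by edgeR). Beside it, KCND3 was higher in S9 as given above.

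Of 26 listed genes of calcium entry, release and handling, 5 were higher in S9 than in S6 and 0 were lower. Over all genes, 6.02% were called higher and 6.34% lower. The median log2 fold change of the 26 was 0.65, where the median over all genes was -0.01. The 5 were CACNA1C (log2 fold change 1.51 ± 0.31 SE, adjusted p = 0.0243 by edgeR), the pore of the L-type calcium channel, CACNA1H (2.14, adjusted p = 0.0443), a T-type calcium channel, RYR3 (2.93, adjusted p = 0.0221), a calcium release channel, JPH2 (2.22, adjusted p = 0.0393), which ties the sarcoplasmic reticulum to the plasma membrane, and CAV1 (1.36, adjusted p = 0.0272), the coat protein of caveolae. CACNA1C stood at 13.7, 12.7 and 11.96 CPM in S6, 43.2, 19.5 and 24.1 in S7 and 44.5, 38.2 and 26.8 in S9, and like KCNMA1 it was above all S6 libraries in every S7 and S9 library. Of 18 tested genes of other potassium, sodium and chloride transport, 2 were higher, namely SLC12A4 (0.87, adjusted p = 0.0332), a potassium-chloride cotransporter, and ANO1 (2.17, adjusted p = 0.0363), a calcium-activated chloride channel, and 0 were lower, with a median of 0.39. In S7 against S6 and in S9 against S7, none of the genes of these lists was called by edgeR. At an unadjusted p under 0.05, 1 partner, 6 calcium genes and 3 transport genes differed in S7 against S6, and 0, 3 and 0 in S9 against S7. The shares over all genes were 17.1% and 9.21%, so that 6 of 26 and 3 of 18 in S7 against S6, and 3 of 26 in S9 against S7, lay near the background.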

How the data were processed

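Polyadenylated RNA of rabbit urethral tissue was analysed from 9 libraries. The authors deposited raw whole-number counts per gene and FPKM for the same libraries. Per the submitters' processing notes, fastp, HISAT2 and HTSeq were used. Versions, genome build and strand setting were not given in the sources used here. FPKM as deposited equalled the count divided by library total and gene length in 172953 of 172961 values above 0 (relative tolerance 1e-06). All 91 symbols were found in the RefSeq table of mOryCun1.1, which was used for names and neighbours.

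Genes were filtered with filterByExpr (minimum count 10, minimum total 15), scaled by TMM and fitted with edgeR 4.0.16 (R 4.3.3) by robust quasi-likelihood, 3 groups in 1 model with 6 residual degrees of freedom. P-values were adjusted by Benjamini-Hochberg over 17102 genes with a threshold of 0.05. Standard errors are the absolute log2 fold change over the square root of F. The common biological coefficient of variation was 41.9%. DESeq2 1.42.0 and limma 3.58.1 were alternatives, as were other scalings, filters and libraries left out. The scripts were tested on simulated data.

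Full tests are given for members called in any comparison, the 3 most abundant and the most changed in each class, and 14 chosen by name, of which KCNJ11 was not kept. Some members are counted but not reported here. The members, lists and rules were chosen with earlier results of these data known.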

Additional observations from a re-analysis of the deposited data

How the results depend on the processing

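With 9 members called in S9 against S6, DESeq2 called 19, limma-voom 17, the replicate block 1 (KCNE3) and the 6 libraries with the higher mitochondrial share 0. Over all genes, these settings called 21.1%, 23.7%, 0.0936% and 0.0406%, against 12.4% in the main fit. With each library left out in turn, the number ran from 0 to 11. Scaling by upper quartiles or DESeq2 size factors, no filter, FPKM, the 2 groups alone and the length correction gave 7 to 10. The overlap with the 9 of the main fit was lowest for the 2 groups alone, where 4 of the 8 called were shared. In S7 against S6, DESeq2 called 6 members and every other alternative 0, and in S9 against S7 all alternatives called 0. The F test, whose alternatives were chosen after seeing the data, gave 0 members, and 0 to 3 with a library left out (3 without S7_2, 2 without S9_4 and 1 without S6_2). The shares of all genes called in these F tests, and by DESeq2 in S7 against S6, are not given here.

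Replicate numbers are shared between the codes, except that S9_1 has a number of its own. Deviations from the group means of same-numbered libraries correlated between -0.0649 and 0.138. S6_2 with S7_2 (0.138), S6_3 with S7_3 (0.132) and S6_4 with S9_4 (0.127) lay above every pair of different numbers. Of those, S7_3 with S9_4 was highest (0.103). The remaining same-numbered pairs reached at most 0.064, and S6_4 correlated better with S7_3 (0.0445) than with S7_4 (0.0226). S6_4, S7_3 and S9_4 were the libraries with the low mitochondrial share. For S6_4 with S9_4, the replicate number and that share cannot be told apart. The labels state no pairing, so the replicate number served only as a block in an alternative. Whether it marks a pairing is not settled.

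Among the 27 members that the rule for full tests selects, the sign of S9 against S6 turned in KCNA5 (-0.0402 with the replicate block, -0.62 without S9_2 and up to 0.48 with other libraries left out), KCNJ15 (0.0726 with limma-voom, 0.35 in the 6 libraries, -0.51 to 0.44 with a library left out) and KCNQ5 (-0.25 in the 6 libraries, -0.0131 with the length correction, -0.17 without S6_4 and up to 0.66 with other libraries left out). In S9 against S7 it turned in KCND3 (-0.11 in the 6 libraries) and KCNJ2 (-0.38 to 0.073 with a library left out). The cause was not tested. The 9 called members kept their sign in S9 against S6 under all 19 alternatives, and their adjusted p passed the threshold in 6 (KCNJ2 and KCNN3) to 14 (KCNE3) of the 19. With 3 libraries a code, changes near the threshold are not settled, and members under 1 FPKM rest on few counts.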

Other observations

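Some members were high in 1 library of a code only. KCNK12, a tandem-pore channel subunit, was at 9.93 CPM in S7_3, where the remaining 8 libraries lay between 0.272 and 1.79. KCNA1, a voltage-gated channel of nerve axons, was at 4.5 CPM in the same library and between 0.0542 and 0.82 in the others. KCNH1, a voltage-gated channel of the ether-a-go-go group, was at 4.1 CPM in S9_4 and between 0.175 and 1.91 elsewhere. KCNK13, a tandem-pore channel of macrophages and microglia, was at 4.39 CPM in S6_3, the library with the highest PTPRC, and between 0.556 and 1.87 in the others. S7_3 and S9_4 were among the libraries with a low mitochondrial share (0.304% and 0.419%), whereas S6_3 had 0.959%. These 4 members were picked after their values were seen, and no test was run on single libraries.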
